A study of Homo sapiens with 9 samples.

Results

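EVX1, EVX2, EN1, FOXP2, PAX2, LHX1, GATA2, GATA3 and TAL1 are transcription factors of the V0, V1 and V2b interneurons of the ventral spinal cord. All 9 were found by gene symbol among the 31589 genes of the deposited tables. They were measured by bulk RNA sequencing in 9 libraries of whole spinal cord organoids (SCOs), which are 3-dimensional cultures differentiated from human induced pluripotent stem cells of the WTC line, with genotype WT in the labels. The 3 libraries of each condition came from SCOs exposed for 96 h by the labels (the study's text gives a shorter time) to vehicle (labelled FGF in the titles), to VPA (valproic acid, an antiepileptic drug that inhibits histone deacetylases) or to VPA + Rapamycin (an inhibitor of the kinase mTOR). Rapamycin was given only together with VPA, so its effect without VPA was not measured. The study worked with 3 clones of this line that carry a reporter at SOX10 and pooled several SCOs of each clone for RNA. It describes each library of a condition as a different clone. The labels give same-numbered libraries of the 3 conditions a shared prefix but do not tie a replicate number to a clone. The p-values thus measure the spread between these libraries, differences between clones included, and the main test held no term for the clone.

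In the developing ventral neural tube, progenitors stacked along the dorsoventral axis give rise to successive classes of interneurons, each marked by its own homeodomain, forkhead or zinc finger factors. V0 neurons send axons across the midline and include the excitatory cells marked by EVX1 and EVX2. V1 neurons are inhibitory and are marked by EN1, with FOXP2 in a subset, while PAX2 and LHX1 are shared by several inhibitory classes. V2 progenitors divide their output between excitatory V2a cells and inhibitory V2b cells, marked by GATA2, GATA3 and TAL1, with the progenitor factor FOXN4 and the Notch ligand DLL4 acting upstream of that choice.

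The libraries held between 15290299 and 17417338 reads counted on genes, and 3 counts in a library, taken as the limit of detection, equal 0.172 to 0.196 CPM, the count scaled by its library total. Levels below are counts scaled to a common library total with TMM factors ("normalized counts"). Each pair of conditions was compared with edgeR's quasi-likelihood test over all genes of its table, and a gene was called at an adjusted p of at most 0.05. Changes are given as log2 fold changes (log2FC) with their standard errors (SE). Vehicle replicates 1 and 3 differed most. The chi-square per gene was 39.1 between vehicle replicates 1 and 3, 17.9 between 2 and 3 and 13.5 between 1 and 2. Pairs of VPA libraries gave 4.75 to 7.56 and pairs of VPA + Rapamycin libraries 6.55 to 14.4. This measure alone does not single out vehicle replicate 3. Vehicle replicate 3 held 126 counts of ATOH1, 86 of LHX9 and 163 of WNT3A (genes singled out after their values were seen), against at most 7, 0 and 20 in any other library. EN2, a midbrain and hindbrain relative of EN1, had 1346 counts there and 113 and 47 in the other vehicle libraries. The results of the 9 factors against vehicle are therefore also given without this library. The neural progenitor factor SOX2 had 4486 ± 216, 4582 ± 178 and 4647 ± 409 normalized counts in vehicle, with VPA and with VPA + Rapamycin (SD, n = 3 each), while the neuronal tubulin TUBB3 had 146 ± 17.6, 88.7 ± 25.7 and 110 ± 17.2. TUBB3 does not stand for all neuronal genes. Of 14 pan-neuronal genes tested with VPA, 8 were called lower, 0 higher and 6 not. Those not called include STMN2 (9192 ± 2569, 6861 ± 799 and 6006 ± 135) and SNAP25 (883 ± 170, 948 ± 53.9 and 1041 ± 96.3), named after their values were seen.

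The upstream sequences of the V2b factors and of EVX2 are shown because these genes span the smallest and the largest changes among those called after VPA. RefSeq promoter entries on GRCh38.p14 were matched for 7 of the 9 genes, and EN1 and LHX1 had no entry. Each line gives the 250 bases before the transcription start in the direction of transcription, with capitals for 4 motifs searched on both strands. These are GATAAG, recognised by zinc finger factors such as GATA2, then CAGATG, an E-box of TAL1 dimers, then TAATTA, a homeodomain core, and TGANTCA. The last takes in the AP-1 motif, which has C or G at the N, but also other sequences. TAL1 lies at chr1:47232336-47232585, GATA2 at chr3:128493202-128493451 and EVX2 at chr2:176083963-176084212, all on the minus strand, and GATA3 at chr10:8045083-8045332 on the plus strand.
TAL1: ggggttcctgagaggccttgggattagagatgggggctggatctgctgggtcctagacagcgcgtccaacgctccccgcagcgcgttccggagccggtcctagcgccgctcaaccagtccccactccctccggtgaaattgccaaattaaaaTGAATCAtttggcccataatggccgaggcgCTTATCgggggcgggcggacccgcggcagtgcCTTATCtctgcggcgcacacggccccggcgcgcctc
GATA2: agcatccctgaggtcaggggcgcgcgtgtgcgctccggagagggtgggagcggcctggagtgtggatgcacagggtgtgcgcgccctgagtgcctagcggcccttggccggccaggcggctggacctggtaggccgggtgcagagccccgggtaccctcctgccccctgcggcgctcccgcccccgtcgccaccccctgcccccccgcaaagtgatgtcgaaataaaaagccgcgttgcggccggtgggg
GATA3: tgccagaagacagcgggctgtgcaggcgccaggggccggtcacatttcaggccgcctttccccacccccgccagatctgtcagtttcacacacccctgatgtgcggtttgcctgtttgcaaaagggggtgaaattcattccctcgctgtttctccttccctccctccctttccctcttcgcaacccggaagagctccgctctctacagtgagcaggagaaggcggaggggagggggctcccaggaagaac
EVX2: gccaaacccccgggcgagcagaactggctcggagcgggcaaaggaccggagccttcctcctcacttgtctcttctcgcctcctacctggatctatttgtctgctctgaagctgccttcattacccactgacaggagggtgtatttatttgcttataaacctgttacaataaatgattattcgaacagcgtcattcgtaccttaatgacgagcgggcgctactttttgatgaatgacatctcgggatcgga
The TAL1 window held 2 copies of GATAAG on the opposite strand, starting 68 and 36 bases before the transcription start. It also held 1 copy of TGANTCA, which overlaps neither. That copy reads TGAATCA, without the C or G of the AP-1 motif. Over all 35116 promoter entries, 5.65% held GATAAG in the same 250 bases, 12.2% CAGATG, 4.35% TAATTA and 6.57% TGANTCA. None of these letters occurred in the windows of GATA2, GATA3 or EVX2.

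Per kilobase of gene length, EVX1 had the highest level in vehicle, 8.39 ± 0.796 CPM per kilobase, followed by GATA2 at 6.28 ± 1.26, TAL1 at 5.45 ± 0.519, EN1 at 5.16 ± 2.47, PAX2 at 5.13 ± 0.838, GATA3 at 4.28 ± 0.374 and LHX1 at 3.64 ± 1.30 (SD, n = 3 each). EVX2 stood at 1.64 ± 1.14 and FOXP2 at 0.566 ± 0.579 on the same scale. The vehicle libraries of EVX1 (7.60 to 9.19 CPM per kilobase) all lay above those of GATA2 (4.97 to 7.48), but those of EN1 reached from 3.05 to 7.87 and so overlapped EVX1. Each later neighbour in this order overlapped the one before it, so the order is not fixed. In VPA the order per length changed: GATA3 came first at 2.53 ± 0.401, PAX2 followed at 1.81 ± 0.570, and EVX1 next at 1.46 ± 0.950. The libraries of EVX1 in VPA spread from 0.873 to 2.56 and overlapped those of GATA3 (2.17 to 2.96), PAX2 (1.25 to 2.38) and LHX1 (1.24 to 1.56), so this order is not fixed either. In VPA + Rapamycin GATA2 led with 3.17 ± 0.612, with PAX2 at 2.80 ± 0.228 and GATA3 at 2.63 ± 0.487, which overlap within their SDs.

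The comparison of VPA with vehicle asks how the histone deacetylase inhibitor changed the ventral neuron programme. All 9 genes passed the filter on low counts, EVX2 through its vehicle libraries, as it held 15, 6 and 0 counts in VPA. Of them, 8 were called lower and 0 higher, and FOXP2 was not called. Over all 17360 genes tested, 32.1% were called in either direction and 15.7% were called lower and 16.4% higher. The median log2FC of the 9 genes was -2.32, against -0.0030 over all genes tested. In the same 8 genes every VPA library lay below every vehicle library, as did 23.2% of all genes tested. For a single gene the exact permutation test of 3 libraries against 3 cannot give a two-sided p under 0.1, which is the value of each of the 8. As whole SCOs were sequenced, fewer cells of a class and less RNA per cell cannot be told apart.

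TAL1, a basic helix-loop-helix factor of V2b cells that is also a master regulator of blood formation, changed with the smallest p. Its raw counts were 540, 509 and 449 in vehicle and 76, 51 and 90 in VPA. The lowest vehicle library thus held several times as many reads as the highest VPA library. The level went from 513 ± 48.9 to 70.5 ± 16.7 normalized counts (SD, n = 3 each), a log2FC of -2.87 (SE 0.19, adjusted p = 7.41e-06, edgeR). By p-value TAL1 ranked 19 among all 17360 genes and 3 among those with a lower estimate. GATA2, the zinc finger factor that is switched on early in V2b cells, had 564, 433 and 358 counts in vehicle and 85, 63 and 140 in VPA. Its level fell from 463 ± 92.9 to 93.1 ± 34.5 normalized counts, a log2FC of -2.32 (SE 0.25, adjusted p = 0.000101, edgeR). GATA3, which acts with GATA2 in the same cells, had 250, 242 and 216 counts in vehicle and 125, 165 and 148 in VPA. The groups did not overlap, but the step was the smallest of the 8, from 243 ± 21.2 to 143 ± 22.8 normalized counts (log2FC -0.77, SE 0.18, adjusted p = 0.00740, edgeR).

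The V2b factors were therefore compared with each other within each library, which takes out the scaling of libraries. Per kilobase, the ratio of GATA2 to GATA3 was 1.74, 1.38 and 1.28 in vehicle and 0.524, 0.294 and 0.729 in VPA. GATA2 thus stood above GATA3 in every vehicle library and below it in every VPA library. With Rapamycin the ratio was 0.819, 1.56 and 1.37, overlapping vehicle. TAL1 relative to GATA3 was nearly constant in vehicle, 1.30, 1.27 and 1.25, and lay at 0.366, 0.186 and 0.367 in VPA and at 0.313, 0.729 and 0.603 with Rapamycin added. TAL1 relative to GATA2 did not overlap between any of the conditions, at 0.749, 0.920 and 0.981 in vehicle, 0.700, 0.633 and 0.503 in VPA and 0.383, 0.468 and 0.440 with Rapamycin added. Over these 9 comparisons of ratios the two-sided exact permutation p was 0.1 in 7, the smallest it can be (0.129 after Benjamini-Hochberg adjustment), 0.3 for TAL1 over GATA3 in VPA + Rapamycin against VPA and 0.5 for GATA2 over GATA3 in VPA + Rapamycin against vehicle.

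**Figure D1:**
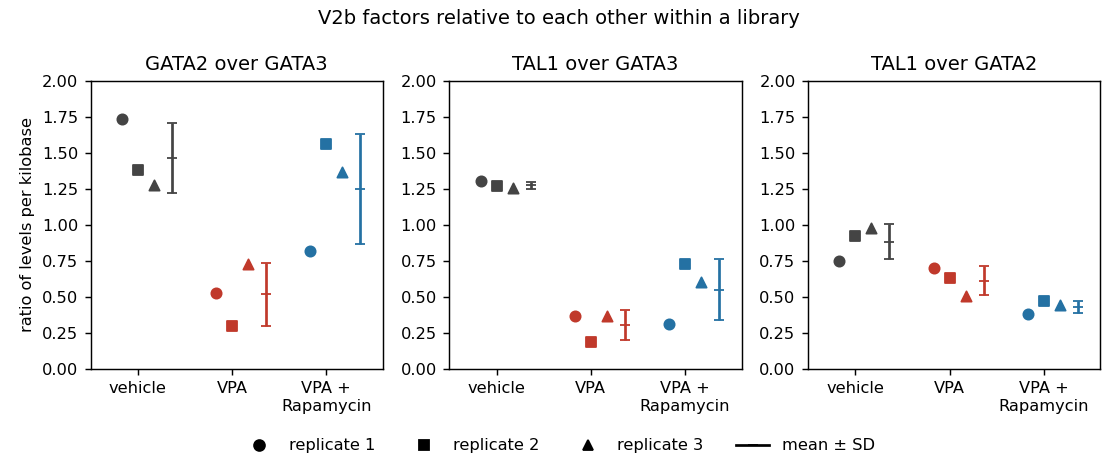
Ratio of the levels per kilobase (y axis, linear) of each pair of V2b factors within a library, by condition, with points shaped by replicate number and the mean ± SD of 3 libraries beside them. GATA2 over GATA3 averages 1.46 in vehicle, 0.516 in VPA and 1.25 with Rapamycin added, and TAL1 over GATA2 is 0.883, 0.612 and 0.430.

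EVX1, a homeodomain factor that fixes the fate of excitatory V0 cells, had 475, 387 and 498 counts in vehicle and 49, 52 and 151 in VPA. VPA replicate 3 held more reads than the other VPA libraries together and still lay below all vehicle libraries. The level was 465 ± 44.1 and 81.0 ± 52.6 normalized counts (log2FC -2.52, SE 0.33, adjusted p = 0.000319, edgeR). EVX2, its relative beside the HOXD cluster, had the largest estimate and the lowest counts, 64, 68 and 201 in vehicle and 15, 6 and 0 in VPA. Its log2FC was -4.04 with a SE of 0.73 (adjusted p = 0.00195, edgeR), and -3.29 without vehicle replicate 3, the library with most EVX2 reads. Without VPA replicate 1, which held most of the VPA reads, it was -5.22. The neighbours of EVX2 in the annotation are LNPK and HOXD13. LNPK, which shapes the endoplasmic reticulum, had a log2FC of -0.61 (SE 0.16, adjusted p = 0.0148, edgeR), and HOXD13 held at most 17 counts in any library.

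At the EVX1 locus 3 annotated transcripts fell together. EVX1 occupies 27242700 to 27250493 on chromosome 7 of GRCh38 (plus strand), and EVX1-AS overlaps it on the minus strand from 27241429 to 27247229. EVX1-AS had 190, 177 and 185 counts in vehicle and 28, 11 and 24 in VPA, a log2FC of -3.21 (SE 0.29, adjusted p = 3.71e-05, edgeR). Its mean count over the 9 libraries was 88.0 against 223 for EVX1, and since the strand setting of the counting is not given in the sources used here, reads in the overlap cannot be assigned with certainty. The long noncoding RNA AC004080.1, from 27239243 to 27241228 on the minus strand like EVX1-AS, overlaps neither and lies 1472 bases from EVX1. Whether it and EVX1-AS are parts of the same transcript was not tested. AC004080.1 had 261, 280 and 291 counts in vehicle and 35, 22 and 46 in VPA (log2FC -3.10, SE 0.24, adjusted p = 1.56e-05, edgeR). No other gene that overlaps one of the 9 had a mean count above 10% of its own.

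EN1, the homeodomain factor that defines V1 cells, had 149, 199 and 367 counts in vehicle and 26, 28 and 75 in VPA. Vehicle and VPA did not overlap, though the vehicle libraries themselves differed widely. The log2FC was -2.57 (SE 0.42, adjusted p = 0.00115, edgeR) and -2.11 without vehicle replicate 3. EN1 is also a gene of the midbrain and hindbrain border, and of 6 tested markers of that region 4 fell (PAX8, GBX2, PAX5 and EN2) and 0 rose. The number called was 2 without vehicle replicate 3, and also 2 without any 1 of the VPA libraries. Their summed level, over all 8 markers listed, was 142 to 263 CPM in vehicle and 99.9 to 119 in VPA, with OTX2 at 0 to 3 counts and WNT1 at 1 to 16 counts in all libraries. The part of these markers in the EN1 result was not tested.

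PAX2, a paired-domain factor of inhibitory neurons, had 468, 463 and 611 counts in vehicle and 189, 126 and 262 in VPA. Its log2FC was -1.51 (SE 0.22, adjusted p = 0.000565, edgeR). LHX1, a LIM homeodomain factor that with LHX5 maintains PAX2 in inhibitory neurons of the dorsal horn, had 214, 239 and 402 counts in vehicle and 101, 113 and 134 in VPA, a log2FC of -1.38 (SE 0.25, adjusted p = 0.00184, edgeR). Both stayed well above the detection limit in VPA, at 35.4% and 38.7% of their vehicle means. By comparison TAL1 was at 13.7%, EN1 at 16.9%, EVX1 at 17.4%, GATA2 at 20.1%, EVX2 at 6.12% and GATA3 at 59.1% of vehicle.

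FOXP2, a forkhead factor of a V1 subset that other cells of the nervous system also use, was the exception. Its counts were 35, 85 and 319 in vehicle and 319, 305 and 340 in VPA. The VPA libraries lay close together at 315 ± 4.13 normalized counts, whereas vehicle stood at 151 ± 154, with vehicle replicate 3 as high as VPA. The log2FC was 1.05 (SE 0.54, adjusted p = 0.158, edgeR), with an approximate 95% interval from -0.0054 to 2.10 before adjustment. Without vehicle replicate 3 it was 2.32 and passed (adjusted p = 4.27e-06, edgeR). Without vehicle replicate 1 or 2 it was 0.57 or 0.79 and did not pass (adjusted p = 0.208 and 0.377, edgeR). Of 14 alternative settings 3 called FOXP2 higher, among them leaving out vehicle replicate 3 and applying no filter on low counts. Leaving that library out gave log2FCs of -2.94 for TAL1, -2.45 for GATA2, -0.83 for GATA3, -2.44 for EVX1, -1.36 for PAX2 and -1.05 for LHX1. The other 8 genes passed under each alternative that tested them, except that GATA3 did not reach an absolute log2FC of 1 where that was asked. Vehicle replicate 3 was the highest vehicle library for 6 of the 9 genes, and VPA replicate 3 the highest VPA library for 7 of 9.

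**Figure D2:**
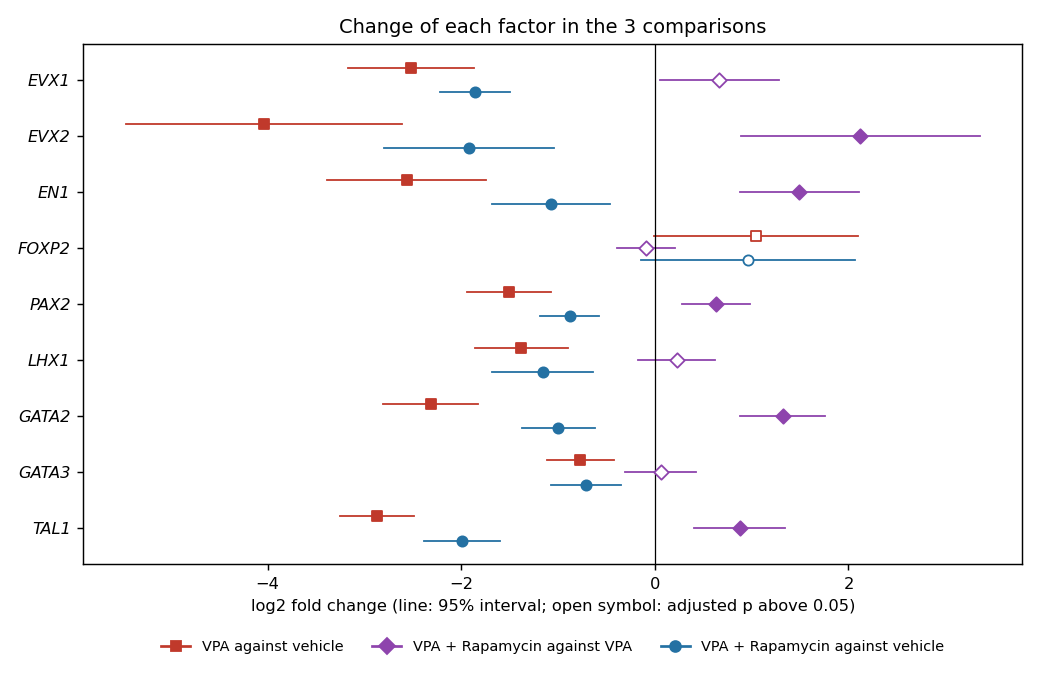
Log2 fold change (x axis) of each factor (y axis) in the 3 comparisons, with a line of 1.96 standard errors to each side and an open symbol where the adjusted p was above 0.05 in edgeR's test. VPA against vehicle is negative for 8 genes and reaches -4.04 for EVX2, VPA + Rapamycin against VPA is positive for 8, and FOXP2 is open in all 3 comparisons.

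Adding Rapamycin to VPA asks whether the mTOR inhibitor altered these levels during VPA exposure. Of the 9 genes, 5 were called higher than in VPA alone (EN1, GATA2, EVX2, TAL1 and PAX2) and 0 lower. Over all 17317 genes tested, 6.74% were called, 3.01% were called higher and 3.73% lower. The median log2FC of the 9 was 0.67, against 0.0039 over all genes. In the 5 genes called, every VPA + Rapamycin library lay above every VPA library, which held for 12.5% of all genes tested. This comparison and the one above share the VPA libraries, so a low VPA library alone moves both.

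GATA2 and EN1 rose under nearly every setting. GATA2 had 188, 251 and 263 counts in VPA + Rapamycin against 85, 63 and 140 in VPA, a log2FC of 1.32 (SE 0.22, adjusted p = 0.00155, edgeR). It was called in 14 of 14 alternatives. EN1 had 116, 149 and 91 counts against 26, 28 and 75, a log2FC of 1.49 (SE 0.31, adjusted p = 0.00747, edgeR), and was called in 13 of 14. TAL1, with 92, 150 and 148 counts against 76, 51 and 90, rose less, by a log2FC of 0.88 (SE 0.24, adjusted p = 0.0349, edgeR). Its lowest VPA + Rapamycin library (90.4 normalized counts) lay just above its highest VPA library (84.5), and the call was lost without VPA replicate 1 or 2 or VPA + Rapamycin replicate 2 or 3, with log2FCs of 0.92, 0.70, 0.79 and 0.73.

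PAX2 had 318, 301 and 255 counts in VPA + Rapamycin against 189, 126 and 262 in VPA. After scaling the groups were 265 to 312 and 128 to 246 normalized counts and so did not overlap (log2FC 0.63, SE 0.18, adjusted p = 0.0430, edgeR). Leaving out any library but VPA replicate 3 ended this call, with log2FCs of 0.42 to 0.69. EVX2, which passed the filter on low counts through its VPA + Rapamycin libraries, had 38, 32 and 22 counts against 15, 6 and 0 (log2FC 2.12, SE 0.63, adjusted p = 0.0498, edgeR). That call was lost without any library but VPA replicate 1, with log2FCs of 1.52 to 2.28, and rests on few reads. Without VPA replicate 1 the log2FC was 3.31. The call was also lost with upper-quartile factors (adjusted p = 0.0534, edgeR), with library totals (0.0564) and with all 9 libraries in 1 fit (0.207), and DESeq2 gave no adjusted p.

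EVX1, LHX1, GATA3 and FOXP2 did not pass. EVX1 had 134, 162 and 95 counts in VPA + Rapamycin against 49, 52 and 151 in VPA, so that VPA replicate 3 lay inside the range of the other group (log2FC 0.67, SE 0.31, adjusted p = 0.224, edgeR). Without that library the log2FC was 1.35 and passed (adjusted p = 0.00689, edgeR). Its neighbours EVX1-AS, with 42, 91 and 44 counts against 28, 11 and 24, and AC004080.1, with 69, 145 and 55 against 35, 22 and 46, both rose (log2FCs 1.504 and 1.40, adjusted p = 0.0241 and 0.0179, edgeR). LHX1 had 99, 154 and 146 counts, a log2FC of 0.22 with an approximate 95% interval from -0.18 to 0.62. GATA3 had 177, 124 and 148 counts and a log2FC of 0.06 (interval -0.31 to 0.43). FOXP2 had 265, 248 and 374 counts and a log2FC of -0.09 (interval -0.39 to 0.21). The adjusted p of these 3 genes was 0.575, 0.899 and 0.791 in edgeR's test, and the intervals leave room for changes of moderate size.

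Against vehicle, the SCOs given VPA + Rapamycin still had less of 8 of the 9 genes, and FOXP2 was not called. Over all 17383 genes tested, 19.0% were called, 9.22% lower and 9.81% higher, and in 18.7% every library lay below every vehicle library, as in these 8 genes. The median log2FC of the 9 was -1.08, against -0.00087 over all genes. The comparison shares its vehicle libraries with that of VPA. TAL1 remained lowest relative to vehicle among the V2b factors, where it fell by 2.00 on the log2 scale (SE 0.20, adjusted p = 0.000264, edgeR). GATA2 fell by 1.00 (SE 0.19, adjusted p = 0.00623) and GATA3 had a log2FC of -0.71 (SE 0.19, adjusted p = 0.0226).

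The V0 factors also stayed low. EVX1 had a log2FC of -1.86 (SE 0.19, adjusted p = 0.000264, edgeR) and EVX2 of -1.92 (SE 0.45, adjusted p = 0.0150). LHX1 was at -1.16 (SE 0.27, adjusted p = 0.0140), EN1 at -1.08 (SE 0.31, adjusted p = 0.0349) and PAX2 at -0.88 (SE 0.15, adjusted p = 0.00400). As shares of the vehicle mean, PAX2 stood at 54.7%, GATA2 at 50.4%, EN1 at 47.7%, LHX1 at 45.1%, EVX1 at 27.7%, EVX2 at 26.6% and TAL1 at 25.2%. FOXP2 stood at 196%, with a log2FC of 0.96 (SE 0.56, adjusted p = 0.260, edgeR).

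Several of these calls rest on single libraries. Without vehicle replicate 3, EN1 was at -0.63 and no longer passed (adjusted p = 0.0721, edgeR), whereas FOXP2 was at 2.23 and passed (adjusted p = 0.000400). EN1 was also lost without vehicle replicate 2 or any of the VPA + Rapamycin libraries, with log2FCs of -1.24 to -0.94. GATA3 was lost without vehicle replicate 2 or VPA + Rapamycin replicate 2 or 3 (-0.73 to -0.57), EVX2 without VPA + Rapamycin replicate 2 or 3 (-1.92 and -1.75) and LHX1 without VPA + Rapamycin replicate 1 (-0.97). TAL1, EVX1, GATA2 and PAX2 passed without any 1 of the libraries. Without vehicle replicate 3 these stood at -2.07, -1.78, -1.14 and -0.74, while GATA3 was at -0.77, LHX1 at -0.83 and EVX2 at -1.17, all still called.

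The rest of the ventral programme was read from lists of genes. For these lists and those below, the shares over all genes tested were 15.7% lower and 16.4% higher for VPA against vehicle. They were 3.73% lower and 3.01% higher for VPA + Rapamycin against VPA, and 9.22% and 9.81% for VPA + Rapamycin against vehicle. Of 18 further factors of the V0 to V3 classes, 16 were tested, and 13 were called lower and 0 higher after VPA than in vehicle, and their median log2FC was -1.36. SOX14, a factor of V2a cells, fell with a log2FC of -2.85 (adjusted p = 1.56e-05, edgeR), so it and the V2b factors were lower in the same comparison. BHLHE22, LHX5, SHOX2 and PRDM8 had log2FCs of -2.49, -1.55, -4.21 and -1.34. With Rapamycin added, 8 of the 16 were called higher than in VPA and 0 lower (median 0.73; 2 called with all 9 libraries in 1 fit), with SOX14 at 1.61, VSX1 at 0.75 and PRDM8 at 1.00. Against vehicle 8 were called lower and 0 higher (median -0.47).

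Among 17 tested factors of the progenitor domains, 7 were called lower and 4 higher after VPA, and the median was -0.75. DLL4 and FOXN4, which precede V2b fate, fell with log2FCs of -2.64 and -1.71 (adjusted p = 4.79e-05 and 0.000170, edgeR), and NKX6-1 fell as well, at -1.19. DBX2, IRX3 and IRX5, which pattern intermediate progenitors, rose with log2FCs of 1.20, 0.82 and 0.67, and DBX1, named after its value was seen, with 0.57. PAX6 and SOX2 were at -0.03 and 0.02 and were not called. Adding Rapamycin gave 3 of 16 tested higher and 3 lower than VPA alone, with NKX6-1 at 1.11, IRX3 at -0.48 and IRX5 at -0.52 (adjusted p = 8.30e-05, 0.00263 and 0.00261, edgeR). DLL4 and FOXN4, at 0.60 and 0.38, were not called in that comparison and were still below vehicle at -2.05 and -1.33. Of 17 progenitor factors tested against vehicle there, 3 were lower and 0 higher (median 0.042).

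**Figure D3:**
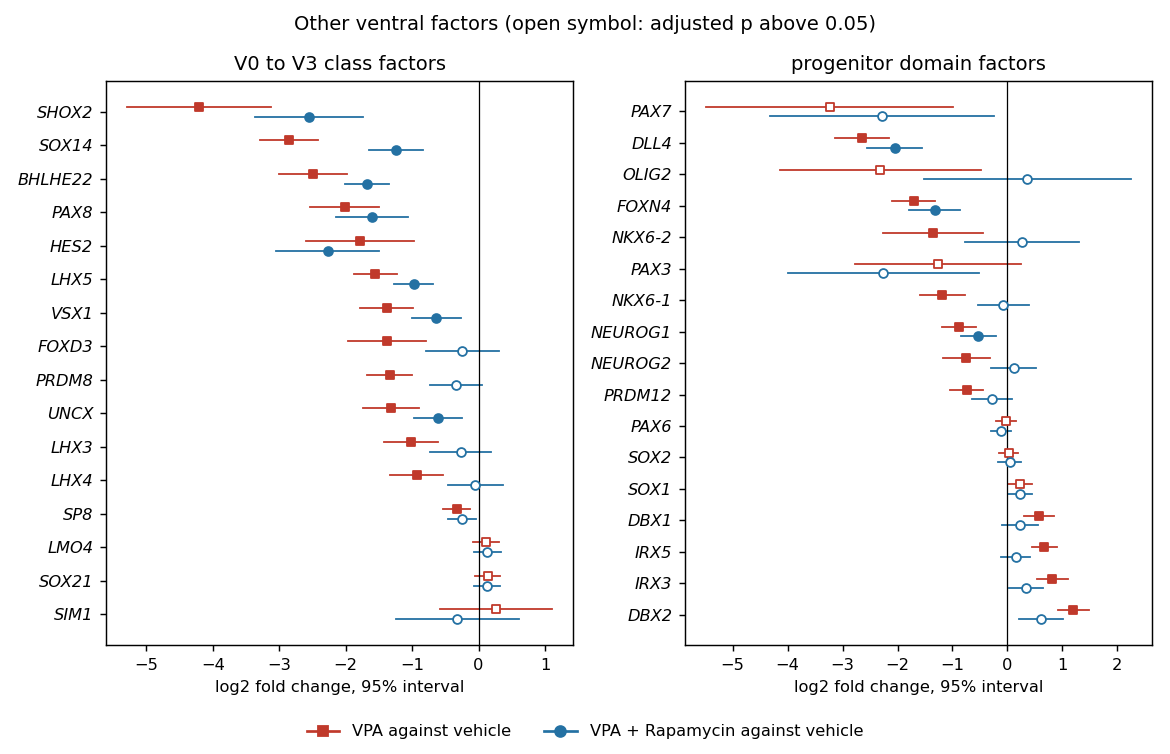
Log2 fold change (x axis, with lines of 1.96 standard errors (SE)) of further ventral class factors (left) and progenitor domain factors (right) against vehicle, in VPA (squares) and in VPA + Rapamycin (circles), with open symbols for an adjusted p above 0.05 in edgeR's test. In the left panel 13 of 16 squares are filled below 0, and in the right panel 7 are filled below 0 and 4 above.

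Genes of neurotransmitter use and general neuronal genes were counted in the same way. Of 9 tested transmitter genes, 5 fell and 2 rose with VPA (median -1.28). SLC6A5, the glycine transporter of inhibitory neurons, had a log2FC of -2.87, and GAD1 and GAD2, which make GABA, of -1.64 and -1.70. SLC17A6, a vesicular glutamate transporter, was at -5.08. SLC17A7, another vesicular glutamate transporter, and SLC18A3, the vesicular acetylcholine transporter, rose, at 2.78 and 1.14. The 2 glutamate transporters thus moved in opposite directions. Of 14 pan-neuronal genes 8 fell and 0 rose (median -0.61), among them NHLH1 at -1.39 and ELAVL4 at -1.20. With Rapamycin added to VPA, 6 transmitter genes were called higher and 1 lower, and 4 pan-neuronal genes higher and 0 lower. Against vehicle, 4 transmitter genes were lower and 2 higher, and 4 pan-neuronal genes were lower and 0 higher.

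Proteins that work in complexes with TAL1 or LHX1 were called about as often as genes at large (32.1% with VPA). Of 12 tested, 3 fell (LDB1, LMO3 and TCF4, with log2FCs of -0.59, -0.85 and -0.59) and 1 rose (LDB2, 0.49) with VPA, and the median was -0.13. With Rapamycin added 2 were higher and 0 lower than in VPA, and against vehicle 2 were lower and 0 higher. LMO2, the partner of TAL1 in blood cells, held 12 to 19 counts in any library.

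GATA2, GATA3 and TAL1 are also genes of blood and vessel cells, and PAX2 and LHX1 of the kidney, so markers of such cells were read in the same libraries. Of 16 blood and endothelial markers, 4 passed the filter and 0 were called in any of the 3 comparisons by the main edgeR test or by DESeq2. Without vehicle replicate 1, 1 was called for VPA against vehicle. Without VPA + Rapamycin replicate 1, 1 was called for VPA + Rapamycin against VPA. At an unadjusted p under 0.05, 1 was found for VPA against vehicle and 1 for VPA + Rapamycin against VPA, TEK in both, and 0 for VPA + Rapamycin against vehicle. The 4 that passed the filter were TIE1 at 135 to 190 counts, KDR at 36 to 97, RUNX1 at 10 to 56 and TEK at 5 to 39. Counts were 0 to 7 for GATA1, 0 to 5 for KLF1, 0 to 2 for SPI1, 0 to 9 for CD34 and 0 to 3 for SOX17 over the 9 libraries. The part of such cells in the GATA2, GATA3 and TAL1 results was not tested. The summed level of the list was 16.0 to 20.9 CPM in vehicle, 18.4 to 21.2 in VPA and 14.4 to 16.5 with Rapamycin added. Of 4 tested kidney and intermediate mesoderm markers, PAX8 fell, SIX2 rose and 2 were not called with VPA, and the summed level was 452 to 514 CPM in vehicle and 524 to 541 in VPA. Most of that sum was SALL1, at 6225 to 8648 counts in a library, which with EYA1 (177 to 312) was not called. GDNF held 0 to 18 counts, WNT9B 1 to 7 and OSR1 0 to 11. PAX8 is also counted in the V0 to V3 class list and the midbrain and hindbrain list.

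Sympathetic neurons use GATA2 and GATA3 too. Of 3 tested markers of these cells 1 fell with VPA, PHOX2A from 62, 17 and 132 counts to 14, 15 and 8, and HAND2 held 0 to 6 counts. The summed level of the list was 14.4 to 17.5 CPM in vehicle, 8.86 to 12.7 in VPA and 13.4 to 15.8 with Rapamycin added, and its part in the GATA2 and GATA3 results was not tested. Of 10 tested mesenchymal markers, 3 rose with VPA (THY1, COL1A2 and COL1A1), 0 fell and 7 were not called. Without vehicle replicate 3 the number called was 6, and without vehicle replicate 2 or VPA replicate 1 it was 2. The summed level of the list was 177 to 350 CPM in vehicle, 617 to 766 in VPA and 304 to 422 with Rapamycin added. Their part in the levels of the interneuron factors was not tested.

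The remaining lists are short, and counts such as 1 of 6 or 1 of 4 are near the share over all genes (15.7% lower and 16.4% higher with VPA). Of other spinal neuron factors 2 of 6 tested fell (ISL1 and FOXD3) and 2 rose (MNX1 and LHX2) with VPA. FOXD3 is also counted among the V0 to V3 class factors. Of neuromesodermal markers 1 of 6 fell (NKX1-2) and 0 rose, and of surface ectoderm markers 0 of 4 fell and 1 rose (KRT19). With Rapamycin added to VPA, 5 of 10 mesenchymal markers fell and 0 rose (0 called with all 9 libraries in 1 fit, 3 by DESeq2 and 2 to 4 when a library was left out), 1 of 4 kidney markers fell and 0 rose, 1 of 4 neuromesodermal markers rose and 0 fell, and 1 of 5 other spinal factors moved each way. No midbrain and hindbrain, sympathetic or surface ectoderm marker was called by edgeR in that comparison, of 6, 3 and 4 tested, and DESeq2 called 0, with 3, 1 and 1 at an unadjusted p under 0.05. Against vehicle, VPA + Rapamycin had 2 of 6 midbrain and hindbrain markers and 1 of 4 sympathetic markers lower with 0 higher. It had 1 of 8 mesenchymal and 1 of 4 kidney markers in each direction. Of other spinal factors 2 of 6, and of surface ectoderm markers 1 of 4, were higher with 0 lower. Of 4 neuromesodermal markers 0 were called by the main edgeR test or DESeq2 (1 at an unadjusted p under 0.05). That count was 3 with no filter on low counts and 1 with the replicate block or with all 9 libraries in 1 fit.

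The genes whose profile over the 9 libraries lay closest to each factor were sought among 16734 genes tested in all 3 tables, by the root mean square distance of centred log2 levels (pseudocount 2). BHLHE22 was closest to EVX1 at a distance of 0.245, followed by the neuronal factor MYT1L and by SLC6A5. MYT1L was also the closest to EN1, at 0.318, followed by CNTNAP5 and OTP. PAX2 was tracked by ACAP2-IT1, SRRM4 and LHX5 at 0.126 to 0.163, and LHX1 by DDX47, MIR124-2HG and CSNK1A1P1 at 0.129 to 0.195. For GATA2 the closest were ADRA1A, KRTAP5-AS1 and GAD2 (0.280 to 0.320), and for TAL1 SHD, AC005481.1 and DLL4 (0.237 to 0.348). EVX2, with its low counts, had no close profile, with KLHL1, CACNA2D1 and AC004982.1 at 0.710 to 0.875. GATA3 was closest to AL731566.1, AC092645.1 and AC026412.1, at 0.101 to 0.118. These distances describe the 9 libraries and share their depth and conditions, so no test was attached to them.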

How the data were processed

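The 9 genes and all gene lists were chosen with earlier results of these data known. RNA was purified on poly-T beads and random-primed, and the submitters' processing notes name HISAT2 2.0.5 and featureCounts 1.5.0-p3, with the strand setting not given in the sources used here. The authors deposited raw read counts per gene, in 1 table for every 2 conditions, beside gene positions on GRCh38 and gene lengths in bases. The authors' size-factor-normalized values, FPKM, fold changes and p-values in the same tables were not used. The counts were fitted with edgeR 4.0.16 in R 4.3.3 (TMM, filterByExpr, quasi-likelihood F test without a block, Benjamini-Hochberg adjustment over all genes tested, threshold 0.05), separately for each table, after tests on simulated data. The standard error was derived from the estimate and its F statistic, and 95% intervals are 1.96 standard errors to each side. This normal multiplier makes them approximate and narrower than the F test implies. For FOXP2 with VPA the unadjusted p was 0.0762 in edgeR's test. Normalized counts and CPM per kilobase used TMM factors over the 9 libraries. Detection limits cover counting error only.

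Genes named are the 9 factors; up to 6 called genes of each list by smallest p; defining markers near 0; the 3 closest profiles of each called factor; and genes overlapping a factor with over 10% of its count, or next to EVX1 and EVX2. Those outside this rule are marked in the text or complete a short count. Lists were counted, not tested, and some genes of the lists are not reported here and were left out of their counts and sums. Alternatives were DESeq2 1.42.0, upper-quartile factors, library totals, no filter, leaving out 1 library at a time, a minimum of 10 counts per library, a joint fit of all 9 libraries, the replicate number as a block, testing protein-coding genes alone, and asking for an absolute log2 fold change of 1 or more. Promoter sequences were read from RefSeq, and plots were drawn with matplotlib 3.10.9.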

Additional observations from a re-analysis of the deposited data

How the results depend on the processing

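For VPA against vehicle, the count of interneuron factors called stayed between 7 and 9 under every setting run. At least 10 counts in every library removed EVX2 from that test. For VPA + Rapamycin against VPA, 5 factors were called, but 4 with DESeq2, upper-quartile factors, library totals or at least 10 counts in every library, 6 with no filter, 1 with all 9 libraries in 1 fit, 3 when an absolute log2 fold change of 1 or more was asked for, and 2 to 5 when a library was left out. For VPA + Rapamycin against vehicle, 8 were called, but 5 with that fold and 5 to 8 when a library was left out. The sign turned for GATA3 in VPA + Rapamycin against VPA, at -0.042 without VPA replicate 1 and -0.069 without VPA + Rapamycin replicate 1 (range when a library was left out -0.069 to 0.20), and for FOXP2, at 0.044 without VPA + Rapamycin replicate 2 (range -0.33 to 0.044). None of these passed in any setting. The cause was not tested.

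Over all genes, VPA against vehicle gave 5568 calls, 1966 with the fold and 3390 to 6710 without a library; VPA + Rapamycin against VPA gave 1168, 113 with all 9 libraries in 1 fit, 188 with the fold and 472 to 1203 without a library; VPA + Rapamycin against vehicle gave 3307, 1121 with the fold and 1295 to 4314 without a library. In VPA + Rapamycin against VPA, 1 fit of all 9 libraries lowered the number called among V0 to V3 class factors from 8 to 2, progenitor factors from 6 to 1, transmitter genes from 7 to 2 and pan-neuronal genes from 4 to 0, and leaving out a library gave 5 to 7, 3 to 10, 2 to 6 and 1 to 4. With library totals only, 62.1% of the calls of VPA + Rapamycin against vehicle were higher, against 51.6% with TMM factors.

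With the replicate number as a block (replicate block), 9, 6 and 9 factors were called in the 3 comparisons against 8, 5 and 8 without it. FOXP2 was called higher against vehicle in both, at 1.499 and 1.36 (adjusted p = 0.00965 and 0.00550, edgeR), and EVX1 at 0.79 in VPA + Rapamycin against VPA (adjusted p = 0.0451). The block changed no other call of a factor. Deviations of same-numbered libraries correlated at -0.0047, 0.0066 and 0.133 on average, and not every library correlated best with its own number. With 3 libraries in each condition these correlations cannot decide whether the numbers are pairs. The block was therefore kept as an alternative to the main test. At these depths EVX2 in VPA, with 0 to 15 counts, is limited by counting error.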
